A study of Mus musculus with 3 samples.

Results

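The genes described here are 44 imprinted genes of the mouse, chosen by name as members of known imprinted clusters. No value entered the rule, but the choice was made with earlier results of these data known. An imprinted gene is expressed mainly or only from the copy inherited from 1 parent, in all tissues or in some. Of the 44, 43 had at least 1 probe on the array, and 39 of the 18068 genes tested were members. Calcr, Rasgrf1, Slc22a2 and Slc22a3 were not well above background and were not tested, and no probe was matched to Rtl1.

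The samples were mouse neural stem cells (NSCs), dividing precursors of neurons and glia, derived from embryonic stem cells and grown with EGF and bFGF. On each of 3 two-colour arrays, total RNA labelled Dnmt3a-/- (KO) in Cy3 was hybridised against total RNA labelled wildtype (WT) in Cy5, and the labels call each array 1 biological replicate of 3. The dyes were never exchanged, so a preference of a probe for 1 dye and a difference between genotypes cannot be told apart. The labels give neither the deleted part of Dnmt3a nor the number of lines or derivations, so the p-values measure only the spread between these samples.

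In imprinting, DNA methylation placed in the egg or the sperm marks control regions, and the mark is copied at each later cell division. Dnmt3a, a de novo DNA methyltransferase, places most such marks in the germ line together with its partner Dnmt3l, and Dnmt1 copies them afterwards. The zinc-finger protein Zfp57 binds the methylated motif TGCCGC at many control regions and recruits Trim28, which protects the mark in the early embryo. Several imprinted genes, among them Peg3, Plagl1, Dlk1 and Grb10, are known for roles in growth and in neural progenitors. Arrays measure the summed RNA of both alleles, so none of the values shows which parental copy was read, and in bulk RNA fewer cells of a type and less RNA per cell cannot be told apart.

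Dnmt3a itself went against its label. Its brightest probe had log2 signals of 11.37, 11.43 and 11.35 in the RNA labelled KO, against 10.30, 10.46 and 10.42 in the RNA labelled WT. The gene was higher by 0.99 ± 0.08 on the log2 scale (SD, n = 3, limma adjusted p = 1.13e-06), and its other probes were higher by 0.61 and 0.76. Whether these probes lie inside the deleted part is not given, and the reason for the higher signal was not tested. Directions are therefore those of the labels, and an exchange of the labels would reverse them. The scanner called 63.6% to 65.0% of probes well above background in Cy3 (KO) and 65.6% to 68.9% in Cy5 (WT), and 1 to 13 spots were saturated in KO and 111 to 172 in WT.

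Among the 39 tested imprinted genes, 12 were lower, 5 were higher and 22 did not pass the threshold (limma, adjusted p under 0.05 by Benjamini-Hochberg across the 18068 genes). The 12 lower members were 30.8% of those tested, where 25.4% of all genes were lower, and the 5 higher members were 12.8%, where 22.5% of all genes were higher. Together 43.6% of the members passed, against 47.9% of all genes, so with the main processing the 2 shares were close. That closeness depended on the processing. With the median of a gene's tested probes, 8 members were higher and 15 lower of 39, where 3821 and 4279 of 18068 genes were. Differences of at least 0.3 on the log2 scale were seen in 13 members, or 33.3%, where 13.7% of all genes passed the threshold with a difference of that size. The median log2 ratio was -0.02 among members and -0.01 among all genes, and the median absolute log2 ratio was 0.12 among members and 0.10 among all genes. The 22 members that did not pass lay between -0.12 and 0.18.

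**Figure D1:**
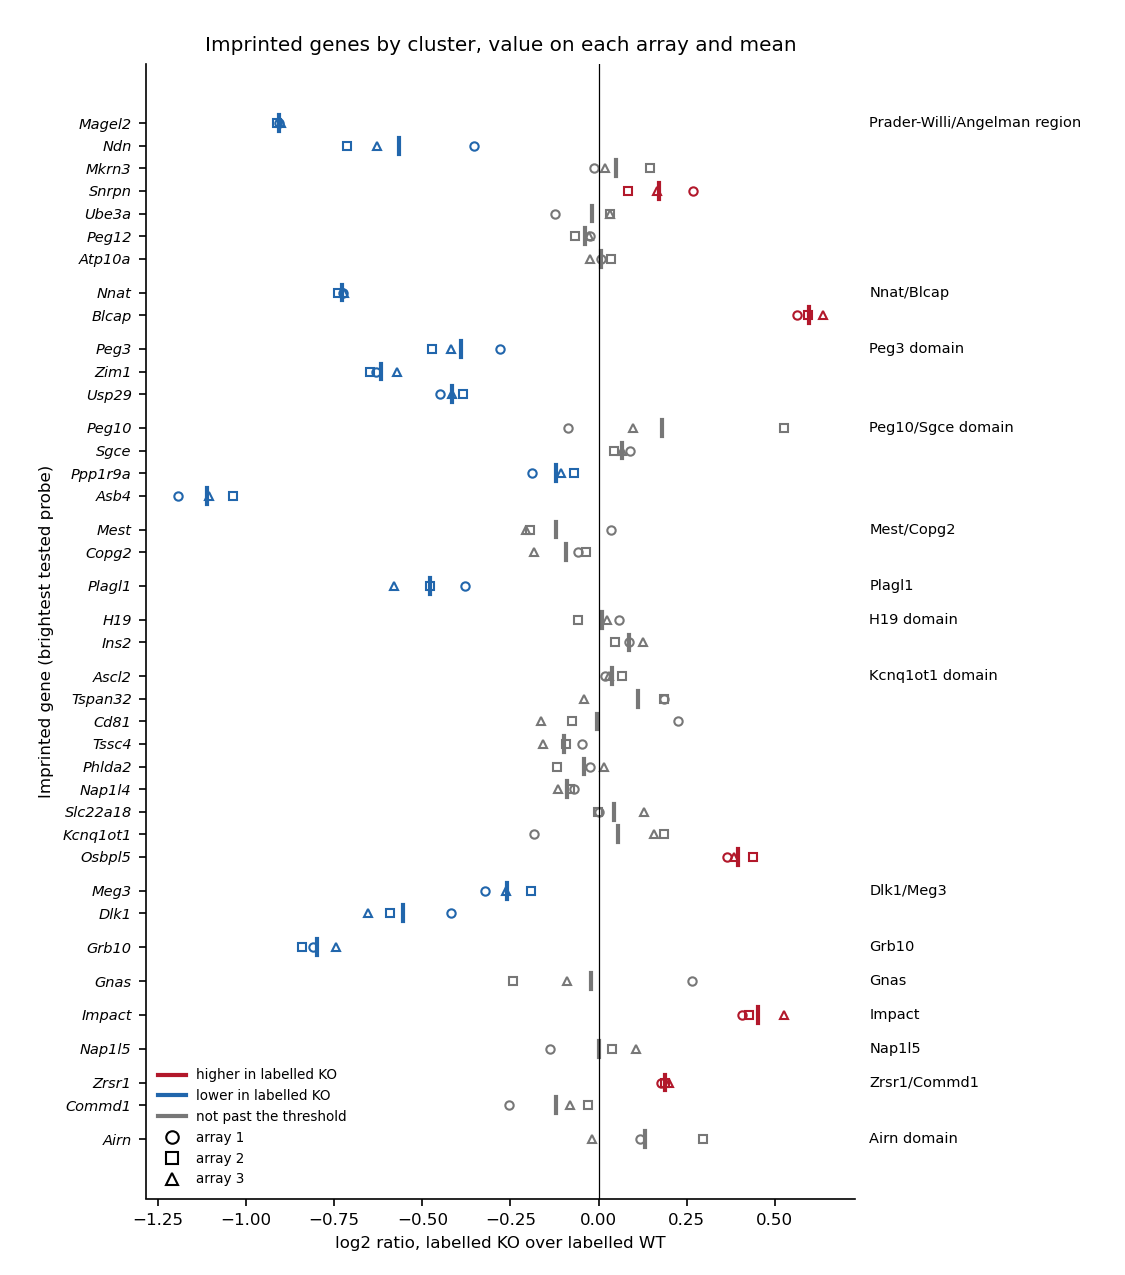
Log2 ratio, labelled KO over WT (horizontal axis), of the 39 tested imprinted genes, grouped by cluster down the page, with a point for each of 3 arrays and a mark for their mean. Members of 1 cluster lie on both sides of 0 in the Prader-Willi/Angelman region and at Nnat/Blcap, Peg10/Sgce, Kcnq1ot1 and Zrsr1/Commd1. All 3 members of the Peg3 domain, both tested members of Dlk1/Meg3 and both of Mest/Copg2 lie below 0.

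The largest decrease among the members was that of Asb4, which encodes an ankyrin-repeat protein of a ubiquitin ligase and lies in the Peg10/Sgce domain of chromosome 6. Its brighter probe had log2 signals of 7.84, 7.86 and 7.82 in RNA labelled KO, against 9.03, 8.90 and 8.92 in RNA labelled WT. All 3 values labelled KO lay below all 3 labelled WT. The mean log2 ratio was -1.11 ± 0.08 (SD, n = 3, adjusted p = 6.61e-07), which is 2.16-fold higher in WT. A second probe was not well above background in RNA labelled KO on any array, and gave a level at least 1.18-fold higher in WT (log2 ratio -0.24). The size for Asb4 moved with the background correction, to -0.51 with the normexp model fitted on all spots and -1.43 with the scanner's own processed signals. The probes are shown because their values differ in size for the same gene. The brighter one lies at chr6:5385772-5385831 and the dimmer one at chr6:5383920-5383979 on the plus strand (mm7).
Asb4 brighter probe: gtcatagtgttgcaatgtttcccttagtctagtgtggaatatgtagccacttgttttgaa
Asb4 dimmer probe: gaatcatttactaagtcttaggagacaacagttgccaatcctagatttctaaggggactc

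The other members of that domain differed less. Ppp1r9a, the actin-binding scaffold neurabin, was lower, at a mean log2 ratio of -0.12 (adjusted p = 0.0249), and its groups overlapped. Without replicate 1 its adjusted p was 0.089, without replicate 3 it was 0.0795, and with the scanner's processed signals it was 0.188. Peg10, a retrotransposon-derived gene needed in the placenta, had log2 ratios of -0.09, 0.53 and 0.10 on the arrays, so its direction differed between them. Its mean of 0.18 did not pass (adjusted p = 0.175), and without replicate 1 it was 0.31 (adjusted p = 0.038). Sgce, which encodes epsilon-sarcoglycan, had a mean of 0.07 (adjusted p = 0.123), with a second probe higher by 0.19.

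On chromosome 7 the Prader-Willi/Angelman region held 2 lower members, 1 higher member and 4 that did not pass. Magel2, a MAGE-family protein that works with a ubiquitin ligase in endosomal protein recycling, had log2 signals of 10.52, 10.50 and 10.57 in RNA labelled KO, against 11.42, 11.41 and 11.47 in RNA labelled WT. The groups did not overlap, and the log2 ratios of the arrays, -0.91, -0.91 and -0.90, were nearly the same. The mean was -0.91 ± 0.0049 (SD, n = 3, adjusted p = 6.12e-07), or 1.87-fold higher in WT.

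Ndn, which encodes necdin, another MAGE-family protein that restrains proliferation in neural precursors, lies 32.3 kb from the Magel2 probe. Its log2 signals were 10.61, 10.52 and 10.71 in RNA labelled KO, against 10.97, 11.23 and 11.33 in RNA labelled WT. The groups did not overlap, but array 1 gave a smaller log2 ratio, -0.35, than arrays 2 and 3, -0.71 and -0.63. The mean was -0.57 ± 0.19 (SD, n = 3, adjusted p = 0.000272), or 1.48-fold higher in WT.

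The remaining members of the region differed less than Magel2 and Ndn, and in both directions. Mkrn3, a zinc-finger ubiquitin ligase that delays puberty, had a mean log2 ratio of 0.05 (adjusted p = 0.33), and Peg12, an intronless gene of the Frat family, -0.04 (adjusted p = 0.344). Snrpn, a spliceosome protein expressed from the paternal copy, was higher by 0.17 (adjusted p = 0.0108), with overlapping groups, and its second probe was higher by 0.30. That call was lost with the normexp model fitted on all spots, at 0.05 (adjusted p = 0.166), and with the channels fitted separately (adjusted p = 0.0755). Ube3a, the maternally expressed ubiquitin ligase of Angelman syndrome, had a mean of -0.02 at its brightest probe (adjusted p = 0.721), while its other probes were lower, at -0.17 and -0.27. Atp10a, a phospholipid flippase, had a mean of 0.01 (adjusted p = 0.894).

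Nnat and Blcap moved in opposite directions. Nnat, which encodes neuronatin, a small membrane protein of the developing brain, lies within an intron of Blcap, and their probes are 5.8 kb apart. The log2 signals of Nnat were 8.91, 8.88 and 8.85 in RNA labelled KO, against 9.63, 9.62 and 9.57 in RNA labelled WT, with no overlap. Its mean log2 ratio was -0.73 ± 0.0085 (SD, n = 3, adjusted p = 1.85e-06), or 1.66-fold higher in WT. Blcap, a small membrane protein that slows cell growth, had log2 signals of 12.77, 12.77 and 12.83 in RNA labelled KO, against 12.21, 12.18 and 12.20 in RNA labelled WT. Here all 3 values labelled KO lay above all 3 labelled WT. The mean was 0.60 ± 0.04 (SD, n = 3, adjusted p = 6.7e-06), or 1.51-fold higher in KO, and with median centring it was 0.08 and did not pass (adjusted p = 0.543).

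Blcap was the 1 member with probes past the threshold in opposite directions. A second probe, A_52_P2520, had log2 signals of 6.62, 6.57 and 6.47 in RNA labelled KO, against 6.35, 6.30 and 6.35 in RNA labelled WT, a mean of 0.22. Another, A_52_P386754, had 6.29, 6.27 and 6.31 in RNA labelled KO, against 6.40, 6.49 and 6.45 in RNA labelled WT, a mean of -0.16. Both were dim beside the brightest probe, and the groups overlapped at neither. The probes of the pair are shown because they carry this opposition. Nnat lies at chr2:157303132-157303191 on the plus strand, and the Blcap probes at chr2:157297289-157297348 (higher), chr2:157298672-157298731 (higher) and chr2:157305245-157305304 (lower) on the minus strand (mm7), so the lower Blcap probe lies on the far side of Nnat from the other Blcap probes.
Nnat probe, lower: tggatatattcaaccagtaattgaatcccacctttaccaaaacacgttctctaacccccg
Blcap brightest probe, higher: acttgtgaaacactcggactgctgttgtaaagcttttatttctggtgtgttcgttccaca
Blcap second probe, higher: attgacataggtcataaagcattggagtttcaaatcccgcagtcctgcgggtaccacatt
Blcap dimmest probe, lower: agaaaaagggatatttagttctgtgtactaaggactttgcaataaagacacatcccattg

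In the Peg3 domain, at the start of chromosome 7, all 3 tested members were lower. Peg3, a zinc-finger protein expressed from the paternal copy and tied to growth and maternal care, had log2 signals of 10.49, 10.38 and 10.54 in RNA labelled KO, against 10.77, 10.86 and 10.96 in RNA labelled WT. These did not overlap, and the mean log2 ratio was -0.39 ± 0.10 (SD, n = 3, adjusted p = 0.000233), or 1.31-fold higher in WT. Its other probes were lower too, at -0.40 and -0.15.

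Usp29, a ubiquitin-specific peptidase gene that starts beside Peg3 on the other strand and has its probe 22.9 kb away, had log2 signals of 7.16, 7.21 and 7.29 in RNA labelled KO, against 7.61, 7.60 and 7.71 in RNA labelled WT. The groups did not overlap. The mean was -0.42 ± 0.03 (SD, n = 3, adjusted p = 3.89e-05), or 1.33-fold higher in WT, and a second probe was lower, at -0.13.

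Zim1, a zinc-finger gene of the same domain expressed from the maternal copy, with its probe 31.2 kb from that of Peg3, had log2 signals of 6.62, 6.53 and 6.57 in RNA labelled KO, against 7.25, 7.18 and 7.14 in RNA labelled WT. Again the groups did not overlap, and the mean was -0.62 ± 0.04 (SD, n = 3, adjusted p = 5.93e-06), or 1.53-fold higher in WT. Both dim genes kept their direction, while their size followed the background correction. Zim1 was at -0.10 and Usp29 at -0.10 with the normexp model fitted on all spots, against -1.45 and -0.70 with the scanner's processed signals.

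**Figure D2:**
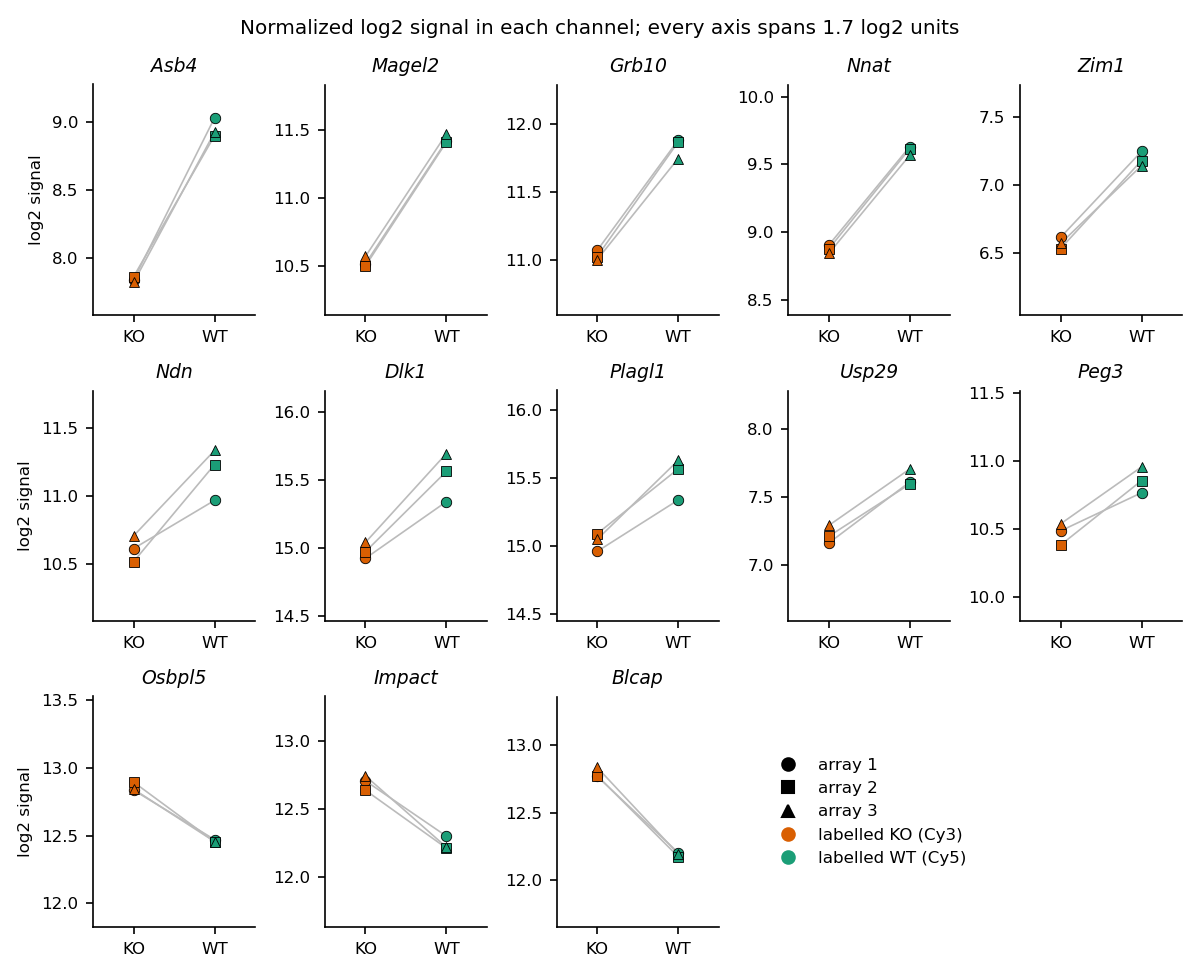
Log2 signal (vertical axis, after normalization between arrays) of the imprinted genes past the threshold with a log2 ratio of at least 0.3 in size, with a point for each array in the channel labelled KO (left) and the channel labelled WT (right) of each gene. No gene's groups overlap, and the genes run from Zim1, between 6.53 and 7.25, to Dlk1 and Plagl1, between 14.92 and 15.70. Choosing genes by threshold and size favours groups that do not overlap. The share of all tested genes without overlap was not counted.

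Dlk1 and Meg3, neighbours on chromosome 12 expressed from opposite parental copies, were both lower. Dlk1, a membrane protein related to Notch ligands that keeps progenitors from differentiating, had log2 signals of 14.92, 14.97 and 15.04 in RNA labelled KO, against 15.34, 15.56 and 15.70 in RNA labelled WT. The spots labelled WT were saturated on all 3 arrays, so the mean log2 ratio of -0.55 ± 0.12 (SD, n = 3, adjusted p = 6.81e-05) stands for a level at least 1.47-fold higher in WT. An unsaturated probe of Dlk1 had log2 signals of 12.53, 12.37 and 12.40 in RNA labelled KO, against 13.31, 13.28 and 13.25 in RNA labelled WT. These did not overlap, and gave a mean of -0.85 ± 0.07 (probe adjusted p = 1.53e-06), or 1.80-fold higher in WT.

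Meg3, a long non-coding RNA listed on the array under the older name Gtl2, had log2 signals of 13.14, 13.30 and 13.30 in RNA labelled KO, against 13.46, 13.49 and 13.56 in RNA labelled WT. The groups did not overlap, at a mean of -0.26 ± 0.06 (SD, n = 3, adjusted p = 0.00085), or 1.20-fold higher in WT. All 5 of its probes were lower, between -0.21 and -0.34. Rian and Mirg, non-coding RNAs read from the same strand beyond Meg3, were taken from a separate list of imprinted genes and were also lower, at -0.55 and -0.48. Together Meg3, Rian and Mirg are expressed from the maternal copy, while Dlk1 is expressed from the paternal copy.

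Grb10, an adaptor that binds the insulin and IGF receptors and restrains growth, is the only member of its cluster on chromosome 11 and is read from the paternal copy in neurons and from the maternal copy elsewhere. Its brightest probe had log2 signals of 11.07, 11.02 and 11.00 in RNA labelled KO, against 11.88, 11.87 and 11.74 in RNA labelled WT. There was no overlap, and the mean was -0.80 ± 0.05 (SD, n = 3, adjusted p = 1.94e-06), or 1.74-fold higher in WT. The other probes of Grb10 were lower, at -0.59 and -0.30.

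Plagl1, a zinc-finger transcription factor on chromosome 10 that slows the cell cycle, had log2 signals of 14.96, 15.09 and 15.05 in RNA labelled KO, against 15.34, 15.57 and 15.63 in RNA labelled WT. The groups did not overlap, although the spot labelled WT was saturated on 2 arrays. The mean was -0.48 ± 0.10 (SD, n = 3, adjusted p = 8.52e-05), which stands for a level at least 1.39-fold higher in WT, and an unsaturated probe was lower, at -0.45.

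**Figure D3:**
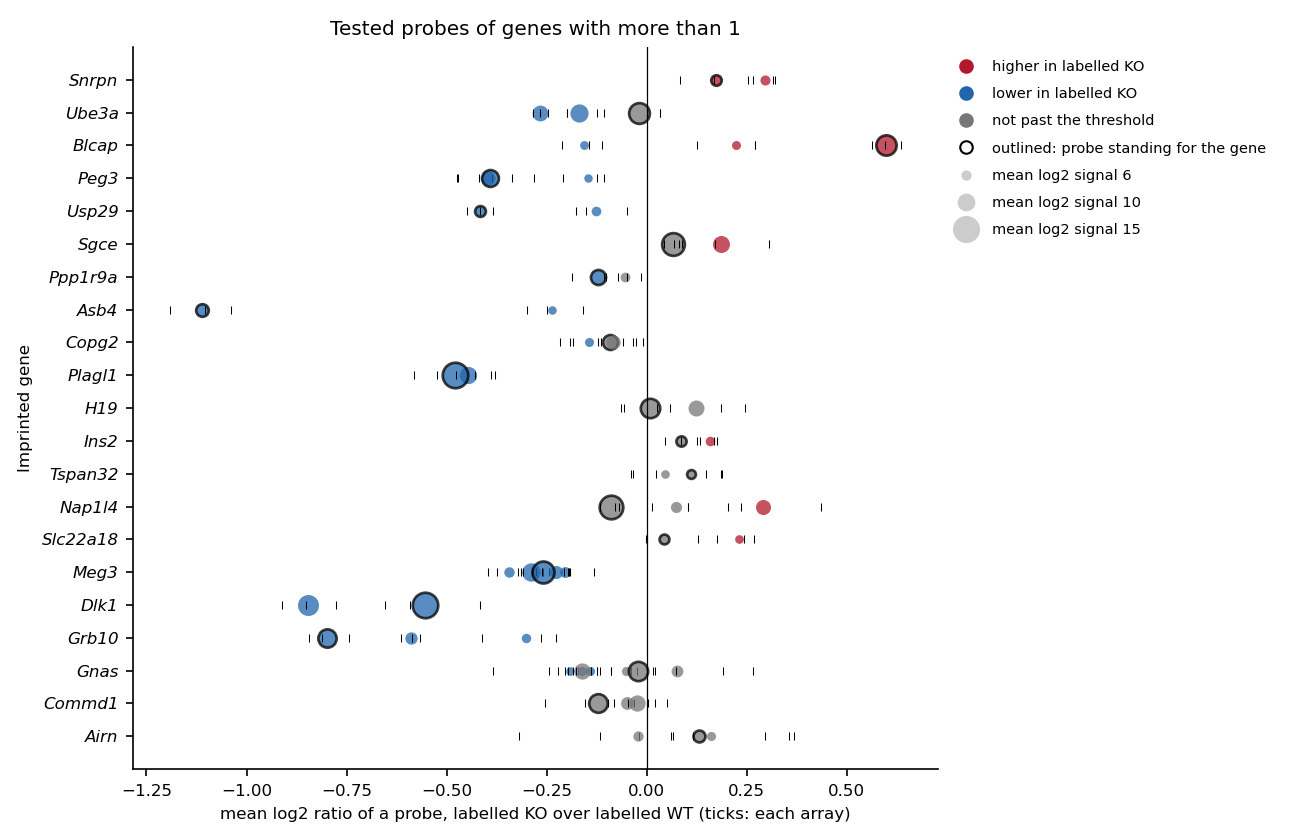
Mean log2 ratio, labelled KO over WT (horizontal axis), of each tested probe of the 21 imprinted genes with more than 1, with a tick for each array, a point size that follows the mean signal and an outline on the probe standing for the gene. Of these genes only Blcap has probes past the threshold on both sides of 0, and the probes of Grb10, Meg3, Dlk1 and Peg3 are all lower.

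Higher members were spread over separate clusters. Impact on chromosome 18, an inhibitor of the amino acid sensor kinase Gcn2 that is abundant in neurons, had log2 signals of 12.71, 12.64 and 12.75 in RNA labelled KO, against 12.30, 12.21 and 12.22 in RNA labelled WT. No values overlapped, and the mean log2 ratio was 0.45 ± 0.06 (SD, n = 3, adjusted p = 4.5e-05), or 1.37-fold higher in KO. Osbpl5, an oxysterol-binding protein of lipid transport at the edge of the Kcnq1ot1 domain, had 12.83, 12.89 and 12.84 in RNA labelled KO, against 12.47, 12.45 and 12.46 in RNA labelled WT. Its groups did not overlap either, at a mean of 0.40 ± 0.04 (SD, n = 3, adjusted p = 5.6e-05), or 1.32-fold higher in KO.

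Zrsr1, an intronless splicing-factor gene inside an intron of Commd1, was higher by 0.19 ± 0.01 (SD, n = 3, adjusted p = 0.00186), while Commd1, a regulator of copper handling, had a mean of -0.12 that did not pass (adjusted p = 0.0638). With median centring, which moved the median of all genes to -0.26, Impact was at -0.06, Osbpl5 at -0.13 and Zrsr1 at -0.21, and none of the 3 passed. Relative to that shifted median all 3 still lay above it.

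The other 8 members of the Kcnq1ot1 domain on distal chromosome 7 did not pass the threshold. The domain is named for the long non-coding RNA that silences its neighbours in cis on the paternal copy. Kcnq1ot1 itself had log2 ratios of -0.18, 0.19 and 0.16, with a mean of 0.05 (adjusted p = 0.549), and without replicate 1 it was 0.17 (adjusted p = 0.00989). Among its targets, the transcription factor gene Ascl2 was at 0.04 and the growth-restraining Phlda2 at -0.04, both dim, with mean log2 signals of 6.55 and 6.19 in RNA labelled KO and 6.52 and 6.23 in RNA labelled WT. The tetraspanin genes Tspan32 and Cd81 were at 0.11 and -0.0040, and the Cd81 spot labelled WT was saturated on 2 arrays. Without replicate 3 Tspan32 was at 0.19 (adjusted p = 0.015), and without replicate 1 Cd81 was at -0.12 (adjusted p = 0.0497). Nap1l4, a histone chaperone-like gene, was at -0.09 (adjusted p = 0.0529), with another probe higher by 0.29. Tssc4 was at -0.10 (adjusted p = 0.0504), and without replicate 1 at -0.12 (adjusted p = 0.0374). Slc22a18, a transporter gene, was at 0.04, with another probe higher by 0.23.

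At the neighbouring H19 domain, the long non-coding RNA H19 had log2 ratios of 0.06, -0.06 and 0.03, which straddle 0, and a mean of 0.01 (adjusted p = 0.854). Ins2, an insulin gene, was at 0.09 (adjusted p = 0.0663), with a second probe higher by 0.16, and passed at 0.26 with the scanner's processed signals (adjusted p = 0.0147). Igf2, the growth factor of this domain, was not among the 44 genes and was read from the separate list of imprinted genes. Its brightest probe was saturated labelled WT on all 3 arrays and gives no direction, and its other probe, unsaturated, was lower, at -0.95.

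Mest and Copg2 on chromosome 6, whose probes lie 0.2 kb apart on opposite strands, did not pass. Mest, an enzyme of the alpha/beta hydrolase fold, had saturated spots labelled WT on all 3 arrays, so its mean log2 ratio of -0.12 gives no fold. Without replicate 1 it was -0.20 (adjusted p = 0.00533). Copg2, a coat protein of Golgi vesicles, was at -0.09 at its brightest probe (adjusted p = 0.0878), and 1 of its other probes was lower.

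Gnas, whose locus makes the stimulatory G protein subunit and several other transcripts from different parental copies, had log2 ratios of 0.27, -0.24 and -0.09 at its brightest probe. Its mean was -0.02 (adjusted p = 0.844), and without replicate 1 it was -0.17 (adjusted p = 0.0307). Of its 7 tested probes, 3 were lower, between -0.14 and -0.19, and all 3 were dim. Nap1l5, an intronless histone chaperone-like gene, was at 0.0027 (adjusted p = 0.969). Airn, the long non-coding RNA that silences Igf2r on the paternal copy, was at 0.13 (adjusted p = 0.092), and without replicate 3 at 0.21 (adjusted p = 0.0234). Its neighbours Slc22a2 and Slc22a3, organic cation transporter genes, were not well above background.

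Grouped by the parental copy that textbooks give as expressed, which for some genes holds only in certain tissues, the directions were mixed. Among 19 tested genes expressed from the paternal copy, 7 were lower, 3 were higher and 9 did not pass, with a median log2 ratio of 0.0027. Among 18 expressed from the maternal copy, 4 were lower, 2 were higher and 12 did not pass, with a median of -0.03. Grb10, whose expressed copy depends on the tissue, was lower, and Gnas, where it depends on the transcript, did not pass. Both parental classes held lower and higher genes, where 25.4% of all genes were lower and 22.5% higher. The difference between the classes was not tested.

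The promoters of the members were searched for TGCCGC, the Zfp57 motif, on both strands (GCGGCA on the other). RefSeq windows from 250 bases before to 50 after a gene's start (GRCm38.p6) were matched for 37 of the 44 members, in 53 windows. The motif was in 14 of the 53 windows, or 26.4%, and in 3813 of the 32851 windows of all genes, or 11.6%. The members' windows also held a median of 16 CpG dinucleotides, against 7 in all windows, and the motif itself contains CpG. It was in the windows of 5 of 12 lower members (Nnat, Plagl1, Zim1, Grb10 and Meg3) and of 2 of 4 higher members with a window (Osbpl5 and Snrpn). Among the members that did not pass it was in those of 4 of 17 (Mest, Copg2, Nap1l5 and Commd1). Calcr and Slc22a2 also held it. A match is a string of letters, and DNA methylation and Zfp57 binding were not measured here.

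The windows of 4 lower members with the motif are shown, with TGCCGC or its reverse complement in capitals, on the strand of the gene. Nnat lies at chr2:157559828-157560127 (plus), Plagl1 at chr10:13090582-13090881 (plus), Zim1 at chr7:6696383-6696682 (minus) and Grb10 at chr11:12037371-12037670 (minus). Beside them stands Peg3 at chr7:6730370-6730669 (minus), a lower member without the motif in the window, which shares 263 bases with the window of Usp29 on the other strand.
Nnat promoter: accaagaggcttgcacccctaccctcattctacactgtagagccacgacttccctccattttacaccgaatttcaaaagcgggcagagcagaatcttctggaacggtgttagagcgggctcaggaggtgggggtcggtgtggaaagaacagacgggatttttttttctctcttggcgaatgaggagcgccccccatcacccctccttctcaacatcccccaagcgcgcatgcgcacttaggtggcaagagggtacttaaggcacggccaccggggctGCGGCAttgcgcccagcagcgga
Plagl1 promoter: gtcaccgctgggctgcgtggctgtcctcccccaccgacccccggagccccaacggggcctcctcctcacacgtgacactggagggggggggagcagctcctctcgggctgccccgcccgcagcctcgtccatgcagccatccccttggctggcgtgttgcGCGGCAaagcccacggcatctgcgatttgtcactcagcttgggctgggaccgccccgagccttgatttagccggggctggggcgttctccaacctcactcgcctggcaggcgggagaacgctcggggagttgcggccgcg
Zim1 promoter: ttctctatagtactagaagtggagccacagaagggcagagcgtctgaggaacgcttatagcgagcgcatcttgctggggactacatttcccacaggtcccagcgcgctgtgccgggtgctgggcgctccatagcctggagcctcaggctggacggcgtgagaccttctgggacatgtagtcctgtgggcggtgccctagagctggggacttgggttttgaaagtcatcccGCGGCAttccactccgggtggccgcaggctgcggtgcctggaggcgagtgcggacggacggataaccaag
Grb10 promoter: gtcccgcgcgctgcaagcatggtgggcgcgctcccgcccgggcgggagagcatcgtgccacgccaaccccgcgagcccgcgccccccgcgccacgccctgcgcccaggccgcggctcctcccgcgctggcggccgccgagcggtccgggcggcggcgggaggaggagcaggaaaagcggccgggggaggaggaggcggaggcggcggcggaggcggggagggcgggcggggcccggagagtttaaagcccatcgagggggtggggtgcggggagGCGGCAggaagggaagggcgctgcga
Peg3 promoter: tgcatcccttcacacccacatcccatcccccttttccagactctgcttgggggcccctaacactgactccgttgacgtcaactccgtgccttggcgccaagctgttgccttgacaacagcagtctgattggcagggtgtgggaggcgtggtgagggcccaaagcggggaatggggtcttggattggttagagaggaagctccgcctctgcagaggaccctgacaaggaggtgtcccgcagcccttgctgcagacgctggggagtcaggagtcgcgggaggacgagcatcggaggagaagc

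Genes that place, keep or remove imprint marks were read from a separate list of 25, of which 23 were tested. Of these, 5 were higher, 9 were lower and 9 did not pass, with a median log2 ratio of -0.09. Among all genes 22.5% were higher and 25.4% lower. Besides Dnmt3a, the higher genes were Ehmt2 (0.28), Ehmt1 (0.15), Arid4a (0.13) and Zfp57 (0.11). The histone methyltransferases Ehmt1 and Ehmt2 act on H3K9, and Zfp57 is the reader of methylated TGCCGC. Lower genes included Uhrf1 (-0.39), which guides Dnmt1 to newly copied DNA, and Dnmt1 itself (-0.21). Hells (-0.18), Dnmt3b (-0.14) and Smchd1 (-0.31), a silencing factor of several imprinted clusters, were lower too. So were Ezh2 (-0.22), Eed (-0.10), Tet2 (-0.14) and Tet3 (-0.13), although another probe of Tet3 was higher. Trim28, at 0.06, and Ctcf, at -0.09, did not pass. The list's 9 lower genes became 5 with the scanner's processed signals.

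Markers of cell types were read beside these results, and their part in them was not tested. Among all genes 25.4% were lower and 22.5% higher. All 12 NSC markers were well above background in both channels, with summed signals of 136949 to 159008 labelled KO and 105652 to 119716 labelled WT, and 8 of them were lower, 2 higher. Ptprz1, one of the higher markers, had saturated KO and WT spots on each of the 3 arrays, and another of its probes was lower, at -0.49. Without Ptprz1 the NSC sums were 55319 to 56672 labelled KO and 63942 to 66885 labelled WT. All 8 fibroblast markers were too, with summed signals of 126687 to 132058 labelled KO and 167585 to 187730 labelled WT, and 5 of them were lower, 2 higher. Of these, Col1a1 and Col3a1 were saturated labelled WT on all 3 arrays. Of the embryonic stem cell markers, 3 of 7 with a probe were well above background labelled KO on all arrays and 4 labelled WT, with summed signals of 1624 to 1706 labelled KO and 1238 to 1299 labelled WT. Without Klf4, which was higher by 0.59, these sums were 548 to 573 labelled KO and 538 to 552 labelled WT. Pou5f1, Nanog and Zfp42 were not among them. Neuron markers summed to 1237 to 1262 labelled KO and 1297 to 1344 labelled WT, with 6 of 7 well above background. Endoderm markers summed to 601 to 615 labelled KO and 570 to 604 labelled WT, with 4 of 6 well above background.

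**Figure D4:**
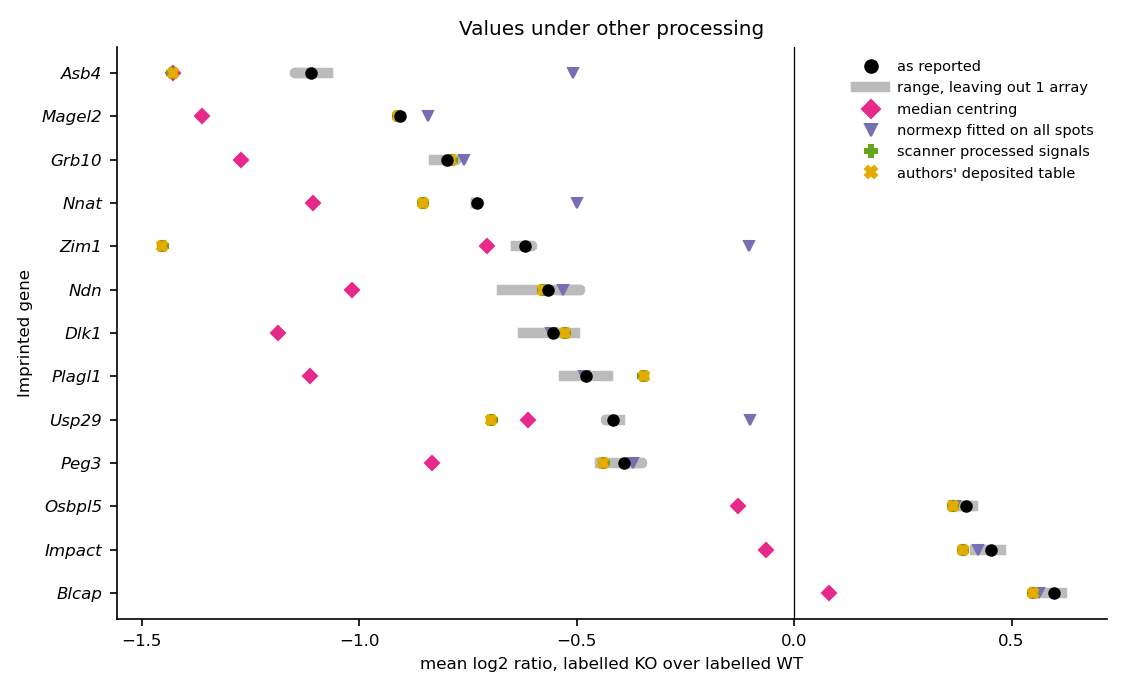
Mean log2 ratio, labelled KO over WT (horizontal axis), of the imprinted genes past the threshold with a log2 ratio of at least 0.3 in size, with a symbol for each way of processing the arrays. The 10 lower genes stay below 0 under each setting shown, and further below it with median centring, while Osbpl5 and Impact cross 0 with median centring.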

How the data were processed

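RNA labelled KO (Cy3) and RNA labelled WT (Cy5) were compared on 3 two-colour Agilent arrays, all on 1 slide, with 45018 features and 41174 distinct probes each. The deposited scanner files, per the file headers, came from Agilent Feature Extraction 9.5.3.1 and hold spot signals and backgrounds as intensity values, with probe positions on mouse build mm7. The scanner's log10 ratio of red over green, per the file headers, served to check direction. The table the authors deposited behaved as a log2 ratio with labelled KO on top, at r = -0.998, -0.997 and -0.993 with the scanner's red over green. Its column medians were 0.0276, and its centring and scaling are not given in the sources used here.

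Intensities were corrected with normexp (offset 50, limma 3.58.1, R 4.3.3), fitted on spots without outlier marks, a choice made with earlier results known. The offset draws ratios of dim probes toward 0. Ratios were loess-normalized within arrays, with controls at weight 0 and the 170 to 242 marked spots per array left out, and channel signals were scaled between arrays with Aquantile. Probes well above background in 1 channel on all 3 arrays were tested, and the brightest tested probe stood for a gene. Of all probes, 22951 were named by accession, 9768 by symbol or synonym, and 8455 kept the file's name. The mean ratio was tested against 0 (lmFit, eBayes, two-sided) with Benjamini-Hochberg adjustment over 18068 genes. This ratio within an array pairs the replicates. Precision is limited by the number of arrays. The bound of a saturated or dim probe ignores the spread between arrays and is open to dye bias. Only the limma fit was run on simulated log ratios with known changes. Background correction, normalization and the choice of probes were not tested that way.

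The members and lists were chosen with earlier results of these data known. Values on each array are given for members past the threshold with a log2 ratio of at least 0.3 in size, and for members with opposed probes. Members past the threshold were picked by their differences, so a lack of overlap between their groups adds no further support. Those of Meg3, and of members whose arrays differed in direction, were chosen after their values were seen. The alternatives were normexp on all spots, scanner processed signals, median centring, the authors' table, other probe filters, the median of a gene's probes, separate channels without the replicate block, and leaving out each replicate. Leaving out saturated probes was chosen after seeing the data. Sequences are probes from the deposited files and RefSeq promoter windows of GRCm38.p6.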

Additional observations from a re-analysis of the deposited data

How the results depend on the processing

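Median centring moved the counts most, to 732 higher and 9403 lower of all genes, 0 higher and 23 lower imprinted genes, and 1 higher and 20 lower genes of the imprint maintenance list. Under it Sgce was at -0.50, H19 at -0.49, Osbpl5 at -0.13, Impact at -0.064 and Zrsr1 at -0.21, and 7.22% of calls were higher, against 46.9% as reported. With normexp fitted on all spots, 2323 of all genes and 2 maintenance genes were higher. Under it 3146 of all genes were lower, with 4 imprinted genes higher and 15 lower. With the median of a gene's tested probes, 8 imprinted genes were higher and 15 lower, where 3821 of all genes were higher and 4279 lower. With separate channels and no replicate block, 3060 of all genes were lower and 3 maintenance genes higher, with 4 imprinted genes higher and 11 lower. With the scanner's processed signals 5 maintenance genes were lower, and likewise 5 in the authors' deposited table. Leaving out 1 replicate gave 3126 to 3862 higher and 3496 to 4093 lower genes, 5 to 7 higher and 11 to 15 lower imprinted genes, and 3 to 4 higher and 5 to 9 lower maintenance genes. With no saturated probe standing for a gene, 5 imprinted genes were higher and 13 lower of 37 tested. Dnmt3a stayed higher and past the threshold under every setting run. The cause of these moves was not tested. Dim probes such as those of Zim1 and Usp29 limit what their size can show.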

Other observations

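A separate list held 31 other imprinted genes, of which 20 were tested. Of these, 13 were lower, 2 were higher and 5 did not pass, with a median log2 ratio of -0.15. Among all genes 25.4% were lower and 22.5% higher. Beside Rian and Mirg, the lowest were Pon3 (-1.26), a lactonase gene of the Peg10/Sgce domain, Klf14 (-0.79), a transcription factor gene near Mest, Cdkn1c (-0.68), which encodes a brake on the cell cycle in the Kcnq1ot1 domain, and the amino acid transporter gene Slc38a4 (-0.47). Gab1 (-0.32), Sfmbt2 (-0.26) and Igf2r (-0.25) were also lower. Casd1 was higher (0.18). Igf2 was counted as higher from a probe saturated labelled WT on all 3 arrays, which gives no direction, and its unsaturated probe was lower (-0.95).

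Within 500 kb of the members' probes lay 149 other tested genes, each counted once. They include Casd1, Cdkn1c, Cpa4, Ddc, Igf2, Igf2r, Kcnq1, Klf14, Mirg, Pon2, Pon3 and Rian, which also stand in the separate imprinted list. Of the 149, 35 (23.5%) were higher and 56 (37.6%) lower, with a median log2 ratio of -0.05. Among all genes 22.5% were higher and 25.4% lower. Igf2 is counted here as higher from its saturated probe, which gives no direction. Around Gnas 9 of 11 neighbours were lower and 0 higher, and around Mest and Copg2 8 of 11 were lower and 1 higher. None of these 3 members passed the threshold at its brightest probe. Some transcripts counted around Gnas lie between its own probes. Copg2as2 lies between the probes of Copg2, and a lower transcript (-0.35) between those of Peg3. Snurf, which was higher (0.27), lies 1.1 kb from a Snrpn probe. Whether any of these is separate from the member beside it was not tested. Around Nap1l5, which did not pass, 3 of 4 neighbours were higher and 0 lower. The neighbourhoods named here were chosen after their values were seen.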
